A study of Homo sapiens with 6 samples.

Results

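The 41 genes described here form the interferon system as it could be read in HAP1 cells: the receptors for type I and type II interferon, the kinases and transcription factors behind them, the sensors of foreign RNA, and genes that interferon induces. They were chosen by symbol from the count table, which holds 35238 rows, and all 41 symbols were found; DDX58 is the older symbol of RIG-I. HAP1 is an established, near-haploid human cell line derived from a chronic myeloid leukaemia line. RNA was sequenced from 3 libraries of wildtype HAP1 cells and 3 libraries of HAP1 cells with a DEGS1 knockout, all untreated, grown with 5% serum and collected 24 h after passage. DEGS1 encodes the desaturase that makes ceramide from dihydroceramide, and the series asks what its loss does to the cell. No group received interferon or a virus, so every level given below is that of unstimulated cells. The labels do not say whether the knockout is 1 clone or whether replicates were separate cultures, so p-values rest on library-to-library spread that may be technical.

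Type I interferons bind a receptor made of IFNAR1 and IFNAR2, and type II interferon binds one made of IFNGR1 and IFNGR2. The receptors activate the kinases JAK1 and TYK2 or JAK2, which phosphorylate STAT proteins. A complex that holds STAT2 and IRF9 binds the interferon-stimulated response element, and type II interferon acts through the gamma-activated site. The induced genes include proteins that block entry of viruses (IFITM), bind viral RNA (IFIT), degrade RNA or stop translation (OAS, EIF2AK2), and modify other proteins (ISG15). Many of them are also expressed at a low, constant level without any interferon.

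Total counts were 17322756 to 28988522 per wildtype library and 19389644 to 27659835 per knockout library. Levels are in CPM, the count of a gene relative to a library size corrected with edgeR's trimmed mean scaling, and 3 counts correspond to 0.109 to 0.161 CPM. DEGS1 stood at 105, 123 and 95.5 CPM in wildtype replicates 1 to 3 and at 9.49, 6.88 and 10.4 CPM in knockout replicates 1 to 3. Wildtype replicate 2 stood apart from the other wildtype libraries: chi-square over degrees of freedom of its counts was 31.2 against replicate 1 and 48.2 against replicate 3, while replicates 1 and 3 gave 11.7. In the knockout, replicate 1 gave 28.7 and 21.8 against replicates 2 and 3, which gave 13.4 between them. The described genes whose call changes without wildtype replicate 2 are given both ways. Markers of other cells were read as well: 10 blood cell markers summed to 4.90 to 8.26 CPM in wildtype and 5.03 to 6.62 CPM in the knockout. Of these, the T cell marker CD3E and the myeloid factor SPI1 were at 0 in all 6 libraries. PTPRC (1.78 to 4.13 CPM), LYZ (1.06 to 2.04 CPM) and CD34 (0.669 to 2.00 CPM) were detected in all 6. Such levels overlap those of some described genes, such as IFIT2 at 1.57 to 2.09 CPM in wildtype. The 4 epithelial markers summed to 5.31 to 6.48 CPM in wildtype and 2.87 to 4.36 CPM in the knockout, with KRT5 and KRT14 at 0 throughout. Of these, EPCAM was called lower, at 2.04, 2.82 and 1.61 CPM against 0.410, 0.306 and 0.109 CPM (edgeR adjusted p = 0.00233), and CDH1 averaged 3.84 and 3.34 CPM. The fibroblast markers summed to 5.83 to 11.01 CPM in wildtype and 8.75 to 10.93 CPM in the knockout. For the endothelial markers the sums were 1.89 to 4.29 CPM in wildtype and 3.18 to 3.29 CPM in the knockout. The part of all these markers in the results was not tested.

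Of the 41 genes, 40 passed the filter on low counts and were tested. GBP2, a guanylate-binding protein, was not tested, with 2, 0 and 2 counts in wildtype and 0 in each knockout library, all under the floor of 3 counts per library. By edgeR's quasi-likelihood test, adjusted after Benjamini and Hochberg over all 16954 tested genes, 2 of the 40 were higher in the knockout, IFIH1 and IFIT1, against 1.51% of all tested genes. A single gene of the 40, IFITM1, was lower, against 2.95% of all tested genes. Over both directions 4.46% of tested genes were called, so 3 of 40 is a share near the background. The median log2 fold change, knockout over wildtype (the log2 change), was 0.03 for the 40 genes and -0.02 for all tested genes, with 23 positive and 17 negative values among the 40. The knockout libraries all lay above the wildtype libraries for 7 of the 40 and all below for 6, against 9.24% and 11.6% of all tested genes. The called genes fell in 3 roles: a sensor of RNA, an IFIT protein and an IFITM protein.

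**Figure D1:**
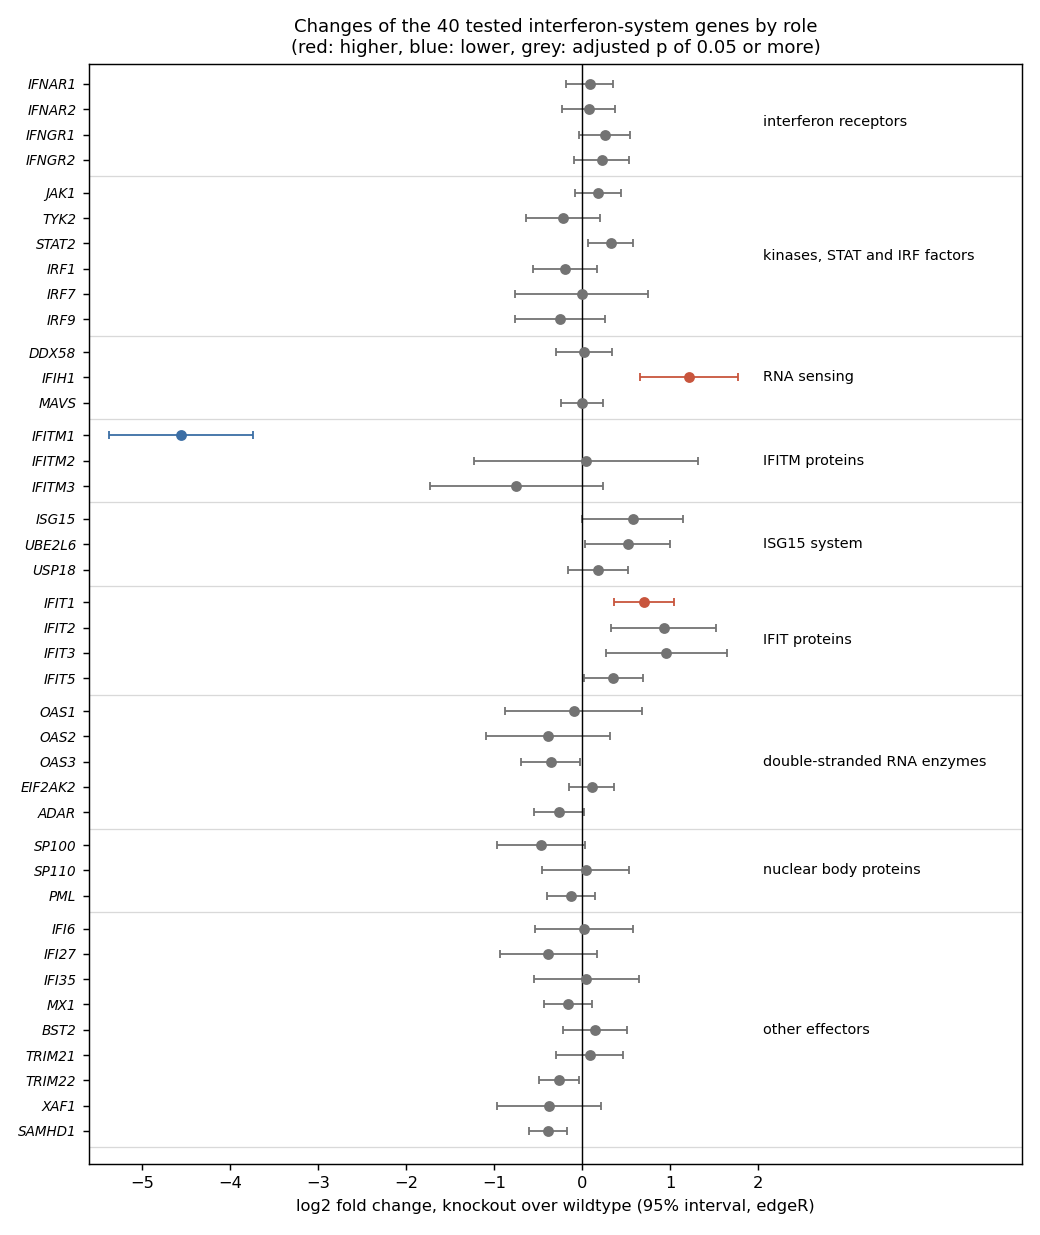
Log2 fold change, knockout over wildtype, of the 40 tested genes grouped by role (vertical axis), with 95% intervals from edgeR on the horizontal axis. IFITM1 stands at -4.55, while IFIH1 at 1.21 and IFIT1 at 0.70 are the 2 genes called higher.

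**Figure D2:**
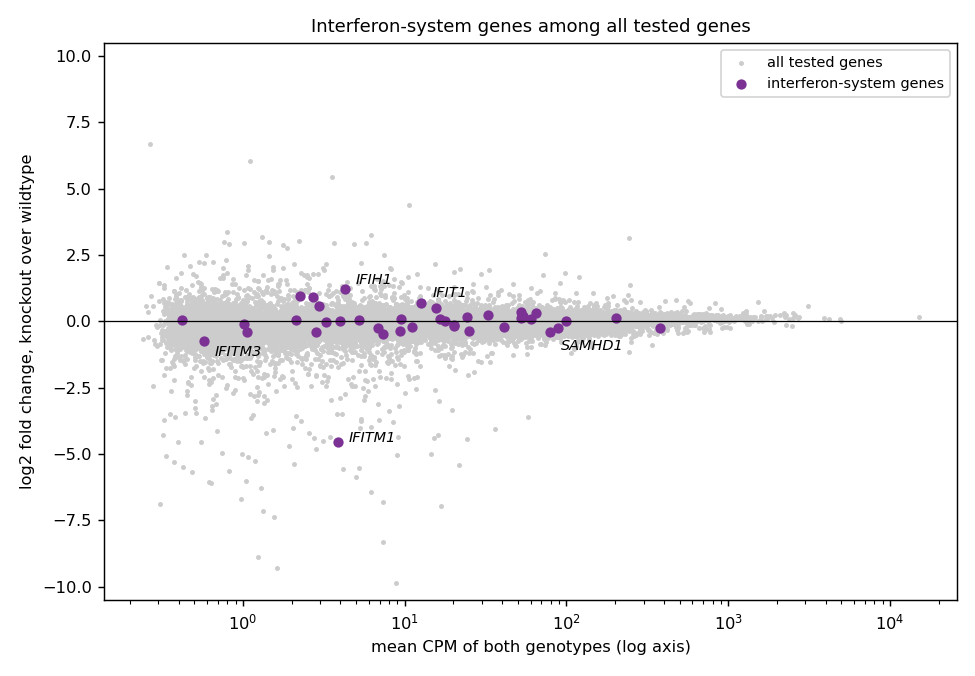
Log2 fold change (vertical axis) against mean CPM of both genotypes (log axis) for 16954 tested genes in grey and the 40 described genes in purple. IFITM1, at -4.55, lies far below the other purple points, which run from -0.75 to 1.21.

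Without wildtype replicate 2 the number called rose to 12 of the 40, against 22.1% of all genes tested in that fit. Of the 12, 8 were higher and 4 lower, against 10.6% and 11.5% of all genes. The genes added on the higher side were IFIT2, IFIT5, UBE2L6, BST2, IFNGR1 and IFNGR2, and those added on the lower side were SAMHD1, SP100 and XAF1. IFIH1, IFIT1 and IFITM1 kept their calls in that fit.

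Promoter sequences of 6 genes on which the results turn are shown because all hold the same element while the log2 changes of their genes run from -4.55 to 1.21. Each is the 250 bases before the RefSeq start (GRCh38.p14), 5′ to 3′ on the gene's strand, with the core of the interferon-stimulated response element in capitals (GAAANNGAAA, or TTTCNNTTTC on the other strand). The counts themselves were made on another build, hg19, so these positions locate the sequences only.
IFIT1, chr10:89392373-89392622, plus strand: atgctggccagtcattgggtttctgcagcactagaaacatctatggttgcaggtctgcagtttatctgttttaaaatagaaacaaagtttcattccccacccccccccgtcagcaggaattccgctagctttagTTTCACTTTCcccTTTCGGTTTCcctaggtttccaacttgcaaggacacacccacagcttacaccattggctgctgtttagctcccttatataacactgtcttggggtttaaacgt
IFIT3, chr10:89327747-89327996, plus strand: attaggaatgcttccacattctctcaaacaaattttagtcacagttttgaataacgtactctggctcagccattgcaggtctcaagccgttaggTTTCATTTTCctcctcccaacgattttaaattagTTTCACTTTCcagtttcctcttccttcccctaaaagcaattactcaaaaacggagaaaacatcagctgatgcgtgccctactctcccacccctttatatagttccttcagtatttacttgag
IFIT5, chr10:89414318-89414567, plus strand: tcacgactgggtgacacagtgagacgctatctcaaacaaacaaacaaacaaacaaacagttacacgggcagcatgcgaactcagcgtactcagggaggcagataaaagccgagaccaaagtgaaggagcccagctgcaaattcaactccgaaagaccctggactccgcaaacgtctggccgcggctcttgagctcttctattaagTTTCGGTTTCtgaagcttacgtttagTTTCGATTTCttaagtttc
IFIH1, chr2:162318685-162318934, minus strand: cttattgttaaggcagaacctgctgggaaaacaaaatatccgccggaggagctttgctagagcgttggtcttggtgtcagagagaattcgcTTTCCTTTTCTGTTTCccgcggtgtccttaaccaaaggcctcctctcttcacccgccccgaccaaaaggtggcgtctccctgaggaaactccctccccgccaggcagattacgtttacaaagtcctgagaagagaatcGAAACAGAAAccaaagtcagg
IFITM1, chr11:313790-314039, plus strand: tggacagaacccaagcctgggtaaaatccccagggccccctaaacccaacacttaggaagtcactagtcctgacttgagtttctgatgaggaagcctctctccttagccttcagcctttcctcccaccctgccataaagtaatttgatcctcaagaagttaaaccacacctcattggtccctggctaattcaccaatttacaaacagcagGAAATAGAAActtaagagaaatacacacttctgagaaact
IFITM3, chr11:320861-321110, minus strand: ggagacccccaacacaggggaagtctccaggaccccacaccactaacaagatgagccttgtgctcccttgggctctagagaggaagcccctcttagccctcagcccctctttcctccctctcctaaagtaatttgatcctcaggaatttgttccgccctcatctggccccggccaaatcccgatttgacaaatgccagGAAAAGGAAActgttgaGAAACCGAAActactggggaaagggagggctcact

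IFIT1, IFIT3 and IFIT5 each hold 2 copies of the core. In IFIT1 they begin 116 and 103 bases before the start, as TTTCACTTTC and TTTCGGTTTC, and in IFIT3 at 156 and 122 bases. In IFIT5 they lie closer, at 45 and 19 bases. IFIH1 holds 3 matches, of which those at 159 and 153 bases overlap. IFITM1 has a single core, GAAATAGAAA at 40 bases, and IFITM3 has 2, at 52 and 35 bases. RefSeq promoters were matched for 32 of the 41 genes, and 11 of these 32 hold the core on either strand. The core was in 3.07% of all 27305 promoters of the same length and in 2.45% of the 11946 of tested genes. The gamma-activated site (TTCNNNGAA, which reads the same on both strands) was found in 7 of the 32, in 6.78% of all promoters and in 5.60% of those of tested genes. Many of the 41 genes were picked as induced by interferon, so a high share of these elements is not a result of these data. Among the 11 genes with the core, 7 had a positive and 4 a negative log2 change, with a median of 0.15 and a range from -4.55 to 1.21. The 21 without it had a median of 0.02 and a range from -0.47 to 0.52. All 3 called genes, IFIH1, IFIT1 and IFITM1, were among the 11, while 4.46% of all tested genes were called. The share called among all tested genes with the core was not counted. Genes without a matched promoter, such as the interferon-induced IFIT2, OAS2, USP18 and TRIM22, are in neither group. Whether the core had a part in the calls was not tested. A single RefSeq start per gene was used. For 24 of the 32 the bases after that start were found in a GENCODE transcript of the gene. Genes counted as without the core, such as MX1, OAS1 and EIF2AK2, may hold it outside this window or before another start. A match of letters is a description of the sequence and does not show that a factor binds there.

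No receptor chain passed the test. IFNAR1 stood at 54.7, 66.3 and 54.5 CPM in wildtype and at 56.3, 70.0 and 59.6 CPM in the knockout, with replicate 2 the highest in both genotypes and the groups overlapping. IFNAR2 was as close, at 16.1 ± 1.78 CPM (SD, n = 3) in wildtype and 17.0 ± 1.29 CPM (SD, n = 3) in the knockout. For the type II receptor, IFNGR1, the ligand-binding chain, stood at 30.6, 34.7 and 24.4 CPM in wildtype and at 35.0, 35.9 and 36.5 CPM in the knockout. The knockout libraries of IFNGR1 lay just above all wildtype libraries, but its log2 change of 0.26 (95% interval -0.03 to 0.55) did not pass (edgeR adjusted p = 0.361). IFNGR2 had a log2 change of 0.22 (95% interval -0.09 to 0.53, edgeR adjusted p = 0.484). None of the 4 receptor chains passed edgeR's test, DESeq2 or limma voom, and none had an unadjusted p under 0.05. IFNGR1 and IFNGR2 passed in the fit without wildtype replicate 2 (edgeR adjusted p = 0.0336 and 0.0079, against up to 0.852 and 0.905 in the other settings). The intervals of the 4 receptors with all libraries ran from -0.23 to 0.55 on the log2 scale.

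Among the 6 kinases and transcription factors none passed by any of the 3 tools, and 1 had an unadjusted p under 0.05. That was STAT2, the STAT protein specific to type I and type III interferon signalling. Its level was 60.3, 51.6 and 60.6 CPM in wildtype and 78.8, 63.7 and 73.4 CPM in the knockout. All knockout libraries lay above all wildtype libraries, replicate 2 was the lowest in each genotype, and the log2 change was 0.32 (SE 0.12, edgeR adjusted p = 0.179). IRF9, its DNA-binding partner, had a log2 change of -0.25 (SE 0.23) with overlapping groups, and -0.06 with chromosome medians removed; genes on chromosome 14 had a median log2 change of -0.18. The kinase JAK1 stood at 50.5 ± 5.58 and 57.2 ± 5.43 CPM (SD, n = 3 each), and TYK2 at 43.9 ± 9.93 and 37.7 ± 8.30 CPM (SD, n = 3 each). IRF1, a factor induced by type II interferon, had a log2 change of -0.19 (SE 0.17). IRF7, which drives type I interferon genes, had a log2 change of -0.01, with 2.01 and 2.03 CPM in replicate 2 of the 2 genotypes against 3.42 to 4.45 CPM in the other libraries.

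The RNA sensors gave 1 of the 3 calls. IFIH1, which encodes MDA5, the sensor of long double-stranded RNA, was read with 56, 94 and 37 counts in the wildtype libraries and with 128, 148 and 158 in those of the knockout. In CPM it stood at 2.20, 3.49 and 1.98 in wildtype and at 6.57, 5.66 and 5.76 in the knockout. The groups did not overlap, and the lowest knockout library lay above wildtype replicate 2, the highest wildtype library. The rise was 2.32-fold (log2 change 1.21, SE 0.26, edgeR adjusted p = 0.0196). The call of IFIH1 was lost with most single libraries left out: the adjusted p was 0.0975 without wildtype replicate 1, and 0.0843, 0.0532 and 0.083 without knockout replicates 1, 2 and 3, where the log2 change stayed between 1.11 and 1.26. Over all alternatives it ranged from 0.00047 to 0.0975. DDX58, the sensor of short RNA with a 5′ triphosphate, stood at 16.9, 18.6 and 17.2 CPM in wildtype and at 17.0, 15.4 and 21.0 CPM in the knockout. MAVS, the mitochondrial adaptor of both sensors, had a mean of 99.8 CPM in each genotype. Their log2 changes were 0.02 (95% interval -0.30 to 0.34) and 0.00 (95% interval -0.24 to 0.24), so a rise of the size fitted for IFIH1 lies outside both intervals.

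**Figure D3:**
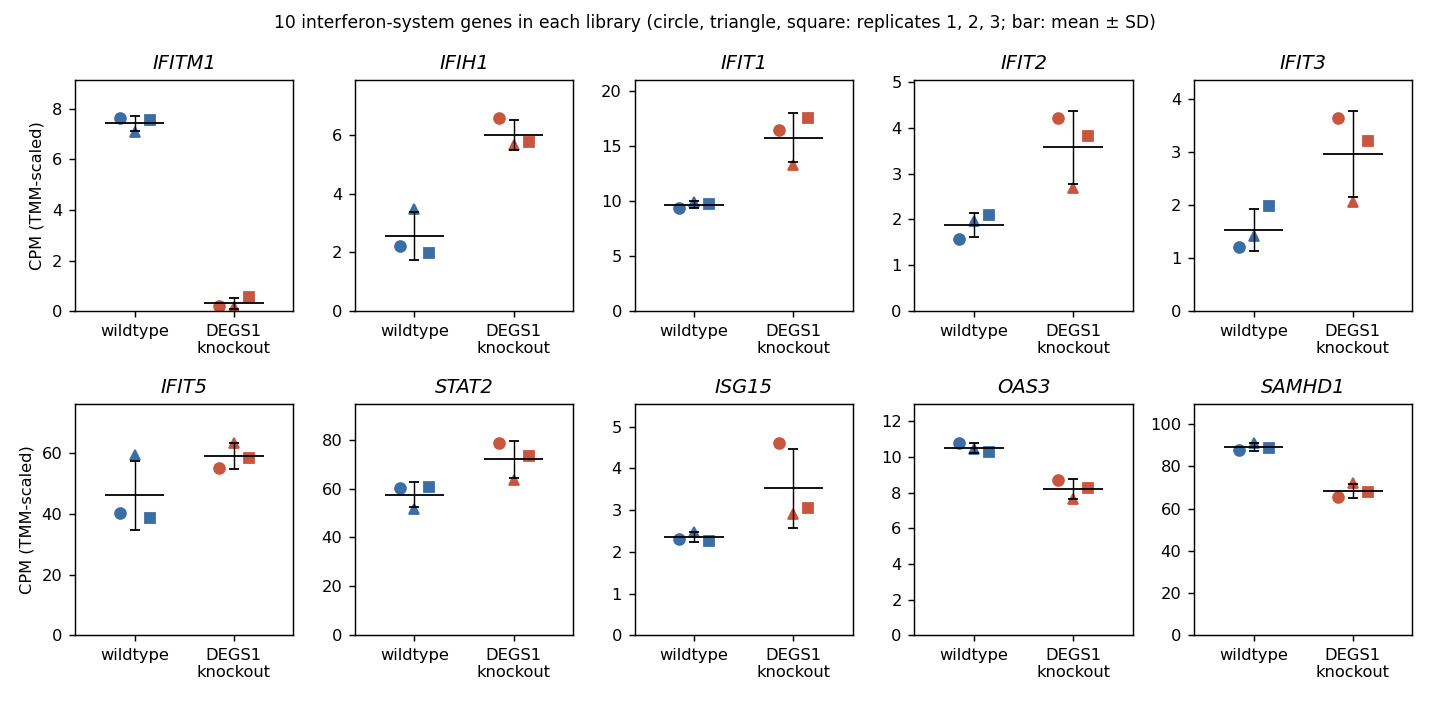
CPM in each library for 10 of the genes, wildtype in blue and DEGS1 knockout in red, with the replicate shown by the symbol and the mean and SD by bars; each vertical axis starts at 0. IFITM1 lies under 1 CPM in each knockout library, and the wildtype and knockout points of IFIH1, IFIT1, IFIT2 and IFIT3 do not overlap.

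All 4 IFIT genes had positive log2 changes, from 0.36 to 0.96 with a median of 0.81, and IFIT1 passed the test. IFIT proteins bind viral RNA that lacks host cap marks, and IFIT1 is the member that blocks translation of such RNA. IFIT1 stood at 9.32, 9.92 and 9.75 CPM in wildtype and at 16.5, 13.2 and 17.5 CPM in the knockout. Wildtype libraries lay within 1 CPM of each other, and the lowest knockout library was replicate 2. The rise was 1.63-fold (log2 change 0.70, SE 0.15, edgeR adjusted p = 0.0238). Its call was lost without wildtype replicate 1 (0.116) or 3 (0.0505), without knockout replicate 1 (0.099) or 3 (0.152), and with library size only (0.0728). Over all alternatives the adjusted p of IFIT1 ranged from 0.00234 to 0.152.

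IFIT2 stood at 1.57, 1.97 and 2.09 CPM in wildtype and at 4.21, 2.68 and 3.83 CPM in the knockout, a log2 change of 0.93 (SE 0.27, edgeR adjusted p = 0.0907). IFIT3, which stabilises IFIT1 in a complex, stood at 1.22, 1.41 and 1.98 CPM in wildtype and at 3.64, 2.07 and 3.21 CPM in the knockout, with a log2 change of 0.96 (SE 0.32, edgeR adjusted p = 0.136). In both genes the groups did not overlap and knockout replicate 2 was the lowest of its group. IFIT5, which binds RNA on its own, had 40.1, 59.2 and 38.7 CPM in wildtype and 55.1, 63.3 and 58.4 CPM in the knockout, so that wildtype replicate 2 fell among the knockout libraries (log2 change 0.36, SE 0.15, edgeR adjusted p = 0.275). Without wildtype replicate 2 the log2 change of IFIT5 was 0.59 (edgeR adjusted p = 0.00138, against up to 0.728 in other settings). All 4 IFIT genes had an unadjusted p under 0.05, against 16.5% of all tested genes. The 4 lie side by side on chromosome 10 and are not taken as independent of each other. IFIT2 passed with the DESeq2 Wald test (0.0494) and without wildtype replicate 2 (0.0257), and in the other settings its adjusted p reached 0.391.

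The 4 IFIT genes are consecutive tested genes on chromosome 10 in RefSeq order (IFIT2, IFIT3, IFIT1, IFIT5). Of the 12 tested genes around IFIT1, none was called in edgeR's test, against 4.46% of all tested genes. An unadjusted p under 0.05 was found for 5 of the 12, among them the other IFIT genes, against 16.5% of all tested genes. The genes flanking the family, LIPA on the side of IFIT2 and SLC16A12 on the side of IFIT5, had log2 changes of 0.09 and -0.44. Around IFIH1 on chromosome 2 the picture differed. Of its 12 neighbours 4 were called higher, all on the same side, against 1.51% of all tested genes. GCA, a calcium-binding protein of granulocytes and the next tested gene, had a log2 change of 1.31 (SE 0.18, edgeR adjusted p = 0.00147). COBLL1 had 0.61, SLC38A11 2.15 and SCN3A, a sodium channel subunit, 2.48. What these neighbours have to do with the call of IFIH1 was not tested. The genes on the other side of IFIH1, from EIF3EP2 to TANK, were not called. Chromosome 2 as a whole had a median log2 change of 0.03.

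**Figure D4:**
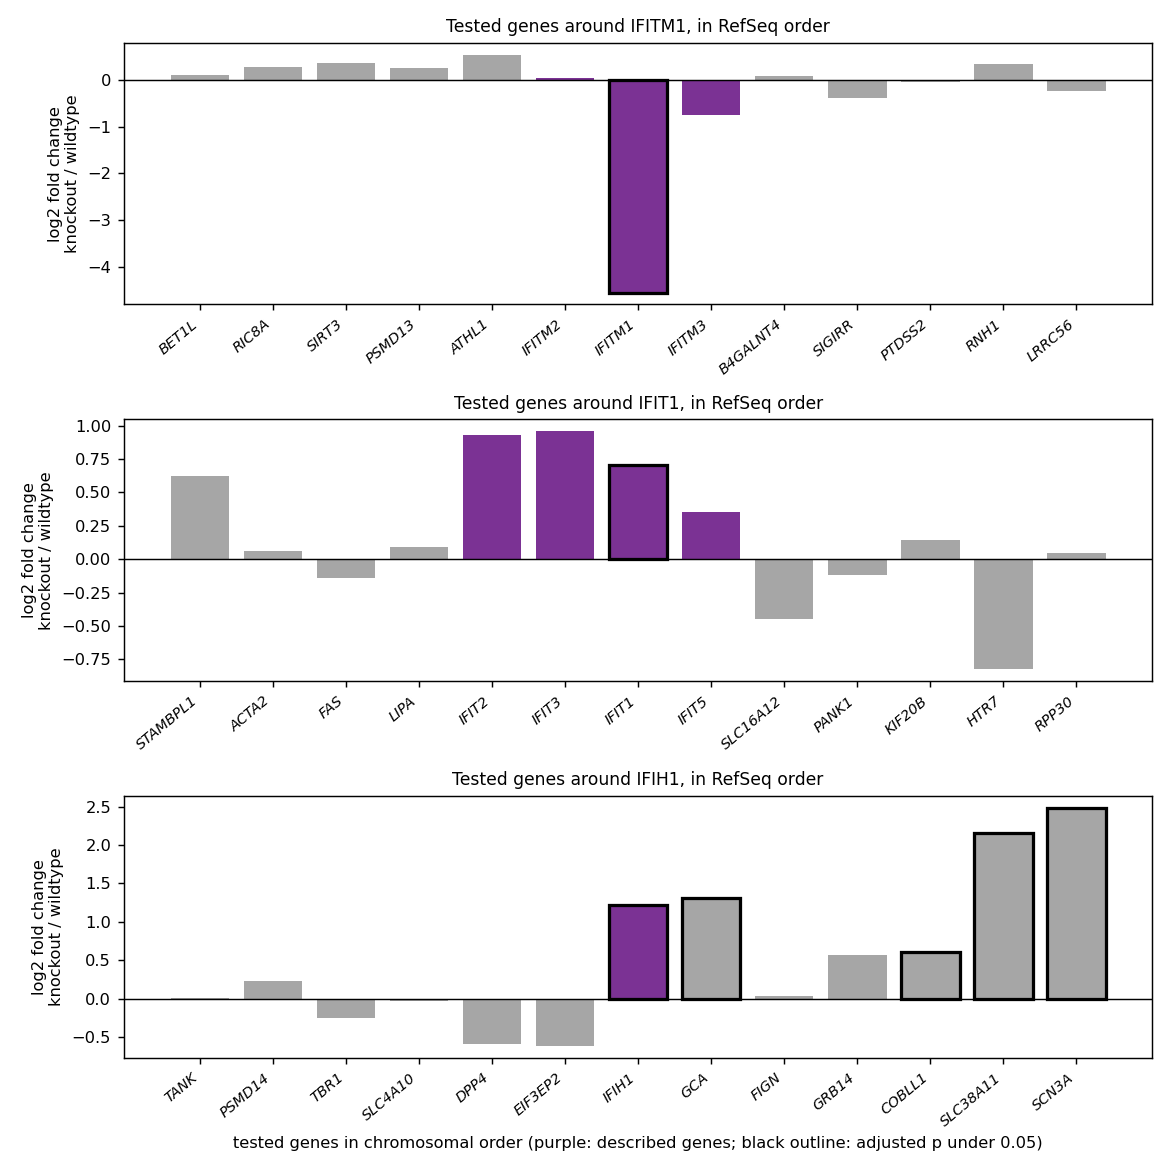
Log2 fold change, knockout over wildtype (vertical axes), of the tested genes around IFITM1, IFIT1 and IFIH1 in chromosomal order, 6 on each side. Purple bars are genes described here and black outlines mark genes called. No neighbour of IFITM1 is called, and IFITM3 stands at -0.75. The 4 IFIT bars stand together, and 4 genes to the right of IFIH1 are called higher, against 1.51% of all tested genes.

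IFITM1 showed the largest change of the 40 genes. It encodes a small membrane protein that restricts the entry of viruses at the cell surface. Wildtype libraries gave 194, 191 and 141 counts and knockout libraries 4, 4 and 15, or 7.63, 7.09 and 7.55 CPM against 0.205, 0.153 and 0.547 CPM. Wildtype libraries were nearly equal, and every knockout library lay far below them. The level that remained was 4.26% of wildtype, a 23.5-fold fall (log2 change -4.55, SE 0.37, edgeR adjusted p = 3.35e-05). The 95% interval of the log2 change from edgeR's fit, which includes the spread between libraries, was -5.37 to -3.74. The exact interval of the ratio of summed counts was 15.5 to 37.4 (95%, counting error only). The call was kept in all 17 other settings, with log2 changes from -5.35 to -4.21, the lowest without knockout replicate 3 and the highest without knockout replicate 2.

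IFITM2 and IFITM3, the close relatives of IFITM1, were not called. Wildtype libraries gave 10, 15 and 5 counts of IFITM2 and knockout libraries 11, 3 and 17, while IFITM3, which acts in endosomes, had 21, 18 and 12 against 14, 8 and 8. Both were under 1 CPM in every library, with overlapping groups. Their log2 changes were 0.04 (95% interval -1.23 to 1.32, edgeR adjusted p = 0.978) and -0.75 (95% interval -1.73 to 0.24, edgeR adjusted p = 0.449), intervals that do not reach the change of IFITM1 but would hold a 2-fold change in either gene on at least 1 side. The ratio of summed counts, wildtype over knockout, was 1.75 for IFITM3 (95% interval 1.09 to 2.84, counting error only). For IFITM2 it was 0.996 (0.582 to 1.70). The sign of IFITM2 was negative in 7 of 16 other settings. The 3 genes are near-identical in parts of their sequence, and the authors' counting could have split or dropped reads shared between them. The counts of all 3 are therefore uncertain, most of all the low counts of IFITM2 and IFITM3. In RefSeq order IFITM1 lies between IFITM2 and IFITM3. None of its 12 tested neighbours was called by edgeR, against 4.46% of all tested genes, and 4 had an unadjusted p under 0.05, against 16.5%.

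The 3 genes of the ISG15 system had positive log2 changes, none of which passed edgeR's test, DESeq2 or limma voom, and 1, that of UBE2L6, had an unadjusted p under 0.05. ISG15, a ubiquitin-like modifier, stood at 2.32, 2.49 and 2.25 CPM in wildtype and at 4.62, 2.91 and 3.06 CPM in the knockout. All knockout libraries were higher, knockout replicate 1 by the most, and the log2 change was 0.57 (SE 0.26, edgeR adjusted p = 0.304). UBE2L6, the enzyme that passes ISG15 to its targets, had 10.7, 18.3 and 9.48 CPM in wildtype and 17.8, 17.2 and 20.3 CPM in the knockout. Wildtype replicate 2 fell within the knockout range, and the log2 change of 0.52 (SE 0.22, edgeR adjusted p = 0.264) became 0.88 (edgeR adjusted p = 0.00123, against up to 0.689 in other settings) without that library. USP18, the protease that removes ISG15 and also damps the type I receptor, had a log2 change of 0.18 (SE 0.16).

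Of the 5 enzymes that act on double-stranded RNA, 4 had negative log2 changes. OAS1, OAS2 and OAS3 make the oligoadenylate that activates RNase L. OAS3 stood at 10.8, 10.4 and 10.3 CPM in wildtype and at 8.72, 7.65 and 8.27 CPM in the knockout, all knockout libraries being lower (log2 change -0.36, SE 0.15, edgeR adjusted p = 0.273). OAS2 was near 1 CPM and had a log2 change of -0.39 (SE 0.32), and OAS1 one of -0.10 (SE 0.36). ADAR, which edits adenosines in double-stranded RNA, stood at 412 ± 29.8 CPM in wildtype and 343 ± 24.2 CPM in the knockout (SD, n = 3 each), with groups that did not overlap and a log2 change of -0.26 (SE 0.13, edgeR adjusted p = 0.338). EIF2AK2, the kinase PKR that stops translation, had a log2 change of 0.11 (SE 0.12). None of these 5 passed by edgeR, DESeq2 or limma voom, and 1, OAS3, had an unadjusted p under 0.05.

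Of the 3 nuclear body genes none passed by the 3 tools or had an unadjusted p under 0.05. PML, the protein that organises the bodies, stood at 21.0 ± 1.74 and 19.2 ± 0.944 CPM (SD, n = 3 each). SP100 had 9.71, 5.83 and 10.2 CPM in wildtype and 6.11, 5.62 and 6.82 CPM in the knockout, with wildtype replicate 2 at the knockout level (log2 change -0.47, SE 0.23, edgeR adjusted p = 0.333, and -0.68 with 0.0135 without that library, against up to 0.788 in other settings). SP110 had a log2 change of 0.04 (SE 0.22).

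None of the 9 other effectors tested was called by edgeR or limma voom, 1 (SAMHD1) was called by DESeq2, and 2 had an unadjusted p under 0.05. SAMHD1 came nearest to the threshold. It encodes the enzyme that breaks down deoxynucleotides and so limits retroviruses. Its level was 87.5, 91.2 and 88.8 CPM in wildtype and 65.3, 72.0 and 67.7 CPM in the knockout. The groups were tight and far apart, and the log2 change was -0.38 (SE 0.10, edgeR adjusted p = 0.0526). In 8 of the 17 other settings SAMHD1 passed, including the DESeq2 Wald test (0.0493), the filter of 1 CPM in 3 libraries (0.0323) and the fit without wildtype replicate 2 (0.0117), and its adjusted p reached 0.300 without knockout replicate 1. TRIM22, an antiviral ubiquitin ligase, stood at 99.0, 95.9 and 95.3 CPM in wildtype and at 83.3, 72.8 and 85.9 CPM in the knockout (log2 change -0.26, SE 0.11, edgeR adjusted p = 0.234). The remaining 7 had unadjusted p-values of 0.158 or more and log2 changes from -0.38 to 0.15. They were MX1, a GTPase that traps viral capsids (21.3 and 19.1 CPM), BST2, which tethers budding virus (50.0 and 55.4 CPM), the ubiquitin ligase TRIM21 (9.21 and 9.77 CPM), XAF1, a promoter of cell death (28.3 and 21.8 CPM), IFI6 (3.94 and 4.01 CPM), IFI27 (3.23 and 2.47 CPM) and IFI35 (2.10 and 2.16 CPM), as means of wildtype and knockout. IFI27 lies on chromosome 14, and its log2 change of -0.38 was -0.19 with chromosome medians removed. XAF1 had 16.2 CPM in wildtype replicate 2 against 32.0 and 36.7 CPM in the other wildtype libraries, and passed only without that library (log2 change -0.65, edgeR adjusted p = 0.00266, against up to 0.946 in other settings). BST2 had 66.5 CPM in wildtype replicate 2 against 42.4 and 41.1 CPM in the other wildtype libraries. Its log2 change was 0.15 (edgeR adjusted p = 0.709). Without that library it was 0.41 (edgeR adjusted p = 0.00889, against up to 0.992 in other settings).

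Per kilobase of the longest annotated transcript, the highest levels in wildtype were those of ADAR with 57.9 CPM per kb, BST2 with 49.1, TRIM22 with 32.4 and IFNGR2 with 22.5. Given its SD of 14.0, BST2 was not separated from ADAR, whose SD was 4.20. Interferon-induced genes were spread over the whole order, with MX1 18th and ISG15 25th of 41. Among the lower levels, IFIT1 had 2.09, OAS3 1.56, IFIH1 0.712, IFIT3 0.616, IFIT2 0.507, OAS1 0.435 and OAS2 0.253 CPM per kb. IFITM1 was 14th of 41 in wildtype with 8.68 CPM per kb and fell to 0.353 CPM per kb in the knockout, where it was not separated from OAS1 at 0.405 CPM per kb, given SDs of 0.250 and 0.147. IFIH1, at 1.67 CPM per kb in the knockout, still lay below IFIT1 at 3.41 CPM per kb.

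The genes also varied between libraries of the same genotype. The coefficient of variation over 3 libraries had a median of 12.8% in wildtype and 10.9% in the knockout, and ranged from 2.04% for TRIM22 to 37.9% for XAF1 in wildtype. Wildtype replicate 2 was the highest or the lowest wildtype library for 34 of the 40 tested genes, 20 times the highest and 14 times the lowest. Wildtype replicates 1 and 3 were at an extreme for 16 and 30 of the 40. In the knockout, replicate 2 was the lowest library for 26 of the 40 genes. Knockout replicates 1, 2 and 3 were at an extreme for 26, 32 and 22 of the 40. Every gene has a highest and a lowest library in each genotype, so high counts arise for any library. Shares over all tested genes were not counted, so these counts are not a trait of the 40 genes. For TYK2 replicate 2 was the lowest in both genotypes, at 32.9 and 30.2 CPM, against 36.4 to 52.1 CPM in the other libraries.

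**Figure D5:**
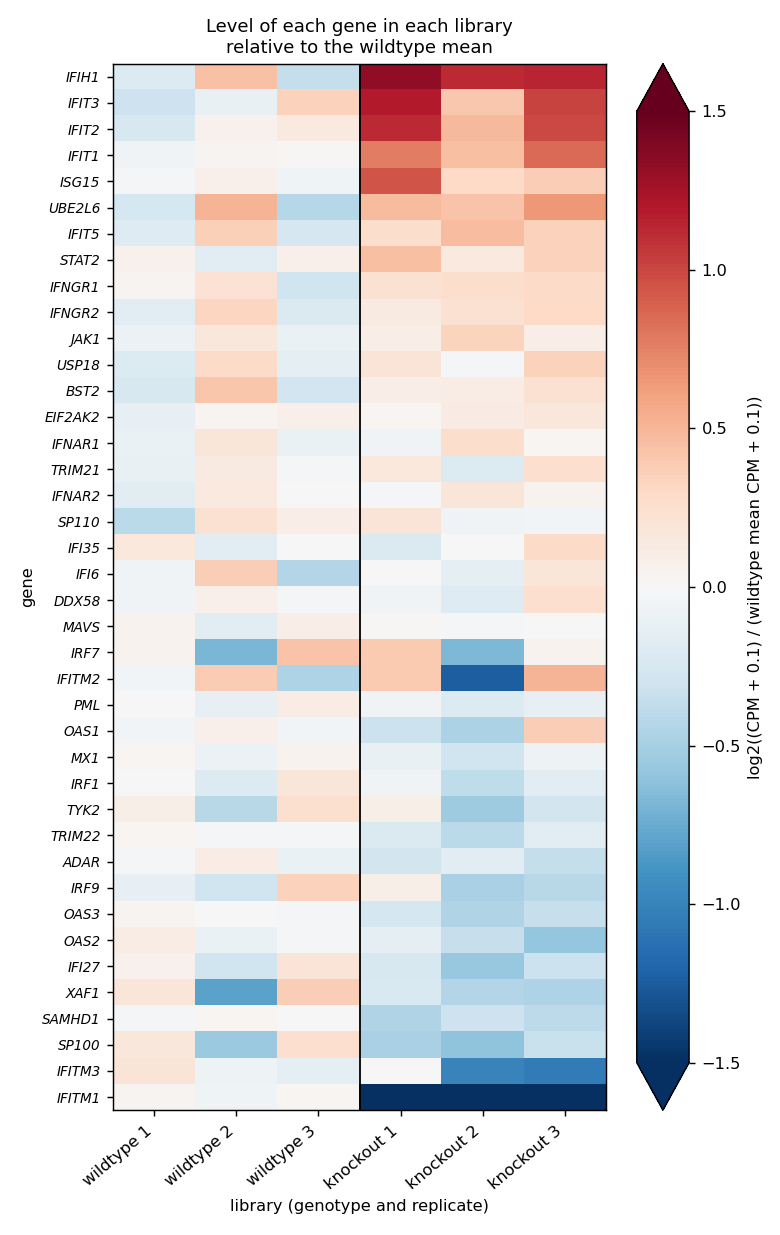
Log2 of each gene's CPM in each library relative to its wildtype mean, with 0.1 CPM added to both and colours limited at 1.5; rows are the 40 tested genes and columns the 6 libraries. Red rows at the top in the knockout columns include IFIH1, IFIT1, IFIT2 and IFIT3, the dark blue row at the bottom is IFITM1, and wildtype replicate 2 differs from its group in rows such as UBE2L6, XAF1 and IRF7.

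The wider interferon pathway was read through 116 further genes in 6 lists, all found in the table. The ligands were nearly undetected: of 21 interferon genes, 16 had no count in any library, which allows up to 0.109 to 0.161 CPM per library. IFNB1, the type I interferon that most cells make upon infection, averaged 0.0441 CPM in wildtype and had no count in the knockout, all values at or under the floor. Only IFNK and IFNW1 were tested, and neither passed with all libraries. IFNK stood at 2.36, 1.19 and 2.95 CPM in wildtype and at 1.49, 1.76 and 1.09 CPM in the knockout. Its log2 change of -0.57 (edgeR adjusted p = 0.486) was -0.86 without wildtype replicate 2 (adjusted p = 0.0457, against up to 0.916 in other settings). The type III receptor chain IFNLR1 and its partner IL10RB had log2 changes of 0.12 (SE 0.14) and 0.01 (SE 0.15). Of 13 tested JAK-STAT genes and inhibitors, 6 other IRF genes and 14 further genes of RNA sensing, none passed by edgeR, DESeq2 or limma voom, and 1, 0 and 0 had an unadjusted p under 0.05. Without wildtype replicate 2, IRF2 passed (log2 change 0.50, edgeR adjusted p = 0.0497, against up to 0.831 in other settings), and over all 6 lists 14 of 87 tested genes were called, 6 higher and 8 lower, against 10.6% and 11.5% of all genes. With all libraries, the gene with an unadjusted p under 0.05 was SOCS3, a feedback inhibitor, at 2.73 ± 0.139 CPM in wildtype and with a log2 change of 0.68 (SE 0.26, edgeR adjusted p = 0.210).

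Of 49 further interferon-stimulated genes tested, 1 rose and 1 fell, against 1.51% and 2.95% of all tested genes. HERC5, the ligase that attaches ISG15 to new proteins, stood at 16.6, 18.2 and 15.7 CPM in wildtype and at 27.9, 22.2 and 26.6 CPM in the knockout (log2 change 0.60, SE 0.13, edgeR adjusted p = 0.0253). Like IFIT1, HERC5 was lowest in knockout replicate 2. N4BP1, an RNase that restricts HIV, stood at 47.7, 46.6 and 46.7 CPM in wildtype and 36.4, 35.0 and 35.0 CPM in the knockout (log2 change -0.41, SE 0.10, edgeR adjusted p = 0.0368), and without chromosome medians its value was -0.25 (adjusted p = 0.217). HERC5 lost its call without each library except wildtype replicate 2 and knockout replicate 2, and N4BP1 without each library except wildtype replicate 2, with adjusted p-values up to 0.134 and 0.220. The 49 genes had 21 positive and 28 negative log2 changes, with a median of -0.07. Among those that did not pass, SAMD9 had the largest positive value (log2 change 1.25, SE 0.39, edgeR adjusted p = 0.115) and CMPK2 the largest negative one (-1.32, SE 0.42, edgeR adjusted p = 0.117), both under 2 CPM on average.

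Some genes outside these lists that belong to neighbouring pathways fell, and were named with their values known. Of all tested genes, 2.95% were called lower. Other genes of those pathways are not described here, so these genes do not show how the pathways moved as a whole. The DNA sensor cGAS, listed as MB21D1, had 28.6, 31.1 and 27.3 CPM in wildtype against 1.39, 1.26 and 1.46 CPM in the knockout, and IFI16 had 880 counts over the wildtype libraries against 10 over the knockout libraries. PSMB8, a subunit of the immunoproteasome, and HLA-B, an antigen-presenting molecule, both inducible by interferon, had log2 changes of -5.04 and -1.18 (edgeR adjusted p = 4.26e-06 and 0.00152).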

How the data were processed

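The deposited table gives raw read counts for each gene symbol, which the authors made from stranded total RNA libraries (1 ug of RNA, single reads of 75 nt, per the labels' protocols). The submitters' processing notes name bcl2fastq 2.20 and hg19. Which aligner, counter and strand setting were chosen was not given in the sources used here. Reads of overlapping or near-identical genes may therefore be shared out or lost. Replicates are separate samples by their labels only. The 6 columns each matched 1 sample.

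All rows were fitted in edgeR 4.0.16 (R 4.3.3): scaling by the trimmed mean of M values, edgeR's expression filter by genotype, and a robust quasi-likelihood F test on genotype. A call means an adjusted p (Benjamini-Hochberg) under 0.05, and SEs were derived from the fold change and its F statistic. The members, their roles, the wider lists, alternatives and naming rule were chosen with earlier results of these data known; the flanking genes and the removal of length and GC trends were added later. The rule gave values per library for called genes, for the smallest p of each role and for the IFITM genes, and up to 4 called genes of each wider list; other genes with values per library were chosen after their values were seen. Alternatives were DESeq2 1.42.0 size factors and Wald test, limma voom 3.58.1, upper-quartile scaling, library size only, other filters, each library left out, a block on the replicate number, chromosome medians removed (taken from genes whose average log2 CPM exceeded 3), a threshold of 0.01 and, added, spline trends with 4 degrees of freedom. Chromosomes and gene order came from RefSeq GRCh38.p14, which placed 77.5% of symbols, and promoters from the same build. Transcript lengths came from GENCODE 29. On simulated data for this comparison, with 16700 genes tested, 29.1% of genes changed 1.5-fold, 74.0% of those changed 2-fold and 94.1% of those changed 4-fold were recovered, with 6 false calls. The simulated libraries were drawn independently, and none stood apart from its group as wildtype replicate 2 did. The rates of recovery and of false calls may therefore not hold for the real libraries. Intervals of log2 changes come from edgeR's fit and include the spread between libraries. The intervals of the count ratios of the IFITM genes and the floors cover counting error only.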

Additional observations from a re-analysis of the deposited data

How the results depend on the processing

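IFITM1 and DEGS1 kept direction and call in all 17 other settings. Over all genes, 756 calls became 375 at a threshold of 0.01 and ranged from 380 (without knockout replicate 3) to 3825 (without wildtype replicate 2) when a library was left out; they were 441 without wildtype replicate 1 and 424 without knockout replicate 1. Of the 40 described genes, 3 calls became 5 with the DESeq2 Wald test (IFIT2 and SAMHD1 added), 1 at 0.01, and 1 to 12 with a library left out; the 1 was IFITM1. The wider pathway went from 2 calls to 1 with DESeq2 size factors, library size only, no filter or chromosome medians removed, to 4 with length and GC trends removed, to 0 at 0.01, and from 0 to 14 with a library left out. Over all genes 737 were called with DESeq2 size factors. Calls over all genes are not given here for the DESeq2 Wald test, library size only, no filter, or chromosome medians or trends removed. Gains and losses in these settings are therefore not read as a trait of the described genes or the wider pathway. With the replicate number as a block, the wider pathway gave 4 calls, the described genes 4 (SAMHD1 added) and all genes 1082. SAMHD1 had an adjusted p of 0.0286 with the block. Same-numbered libraries share a code in their labels whose meaning is not given. Their deviations correlated at 0.26, 0.41 and -0.23, and not every library correlated best with its own number, so the numbers were not taken to pair the libraries. IFITM2 reversed to -0.22 with limma voom, -0.040 with the block, -0.017 with chromosome medians and -0.035 with length and GC trends removed, and ranged from -0.35 to 0.52 with a library left out. With a library left out, IFNAR1 ranged from -0.0095 to 0.19 and IFNAR2 from -0.0049 to 0.16, the signs turning without knockout replicate 2 and without wildtype replicate 1, respectively. The cause of these differences was not tested. Of 287 values of 17 described genes, 253 kept direction and side of the threshold, 11 lost a call, 14 gained one and 9 reversed. The 9 were those of IFITM2, IFNAR1 and IFNAR2. The other described genes were left out of this count, among them BST2, XAF1 and IFIT5, called without wildtype replicate 2. Signs also turned in some settings for genes left out, such as IRF7 and DDX58. IFITM2 and IFITM3 had only 3 to 21 counts per library, with SEs of 0.58 and 0.45 on the log2 scale.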
